A study of Mus musculus with 7 samples.

Results

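The 10 genes Lyz2, Cd14, Fcgr1, Csf1r, Cd68, Adgre1, Ccr2, Ly6c2, Fcer1g and Tyrobp are widely used to mark monocytes and macrophages in the mouse. They were taken by symbol from a table of 42687 gene identifiers, and all 10 were found there. The libraries were made from cells of digested mouse femurs that carried CD24 and CD29 and were sorted by flow cytometry, a population that the labels call skeletal stem cells. C57BL/6 mice, 3 months old at the start, ate a high fat diet (HFD, 60% fat) or a low fat diet (LFD, 10% fat) over 4 weeks. There were 3 HFD libraries (replicates 2 to 4) and 4 LFD libraries (replicates 1 to 4), and the comparison asks how the sorted cells differed between the diets. The labels give no genetic change in any group, and they do not say whether a library holds cells of 1 animal or of several. Nothing in them says that blood cells were gated out.

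Monocytes arise in bone marrow and carry the growth factor receptor encoded by Csf1r, and classical monocytes leave the marrow through the chemokine receptor encoded by Ccr2. In tissues they can become macrophages, which take up particles through Fc receptors and digest them in lysosomes. Fcer1g and Tyrobp encode small adaptor chains with an activation motif (ITAM) that passes the signal of many surface receptors to the kinase Syk. Neutrophils, the other main phagocytes of marrow, also carry Lyz2, Cd14, Fcer1g and Tyrobp, so these genes do not separate the cell types on their own.

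Total counts ranged from 17391613 to 24681838 per library. The skeletal collagens and regulators of the stromal list summed to 50087 to 61117 CPM in HFD libraries and 16206 to 51452 CPM in LFD libraries, where CPM is counts per 1000000 of the TMM-scaled total. Erythroid genes, mostly globins, summed to 22596 to 109311 CPM in HFD libraries and 93340 to 161389 CPM in LFD libraries. Of 11 erythroid genes tested, 11 had lower values in HFD (median log2 fold change -0.89), with overlapping groups for each, and 0 had an unadjusted p under 0.05 in edgeR or were called by DESeq2. The part of erythroid RNA in the values of the markers was not tested. The endothelial marker Pecam1 stayed at or under 2.25 CPM in HFD libraries and 5.98 CPM in LFD libraries. Ptprc, which encodes the pan-leukocyte protein CD45, measured 51.9, 49.6 and 55.9 CPM in HFD 2 to 4, against 0.117, 6.14, 9.34 and 24.8 CPM in LFD 1 to 4. Every HFD library lay above every LFD library for Ptprc, and the gene had an adjusted p of 0.672 by the quasi-likelihood test of edgeR. Xist had 0 counts in each HFD library and 257 to 526 counts in each LFD library, and 4 Y-linked genes summed to 2494 to 3405 counts in HFD and 1 to 5 counts in LFD. Diet and sex therefore cannot be told apart in anything that follows.

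The marker genes had higher values in HFD libraries, but none passed the test. Of the 10 members, 10 had a positive log2 fold change of HFD over LFD, as did 51.5% of the 14304 genes tested. Their median was 2.12, and 2.01 without Fcgr1, against 0.02 for all genes tested. With edgeR's quasi-likelihood test and adjustment over all genes, 0 of 10 passed 0.05 (adjusted p from 0.288 to 0.919), and 0.035% of all genes tested passed. An unadjusted p under 0.05 with a higher HFD value was found for 7 of 10 members and for 5.18% of all genes tested. The HFD libraries lay above every LFD library for 9 of 10 members, and for 8.4% of all genes tested. DESeq2 called 5 of 10 members higher (Lyz2, Cd14, Fcgr1, Fcer1g and Tyrobp), against 1.77% of the genes it tested, and limma-voom called 0 of 10, against 0.175% of all genes tested. Fcgr1 passed the filter on low counts through its HFD libraries alone, so its place among the tested genes already required a difference. In these bulk samples, fewer cells of a type and less RNA per cell cannot be told apart.

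**Figure D1:**
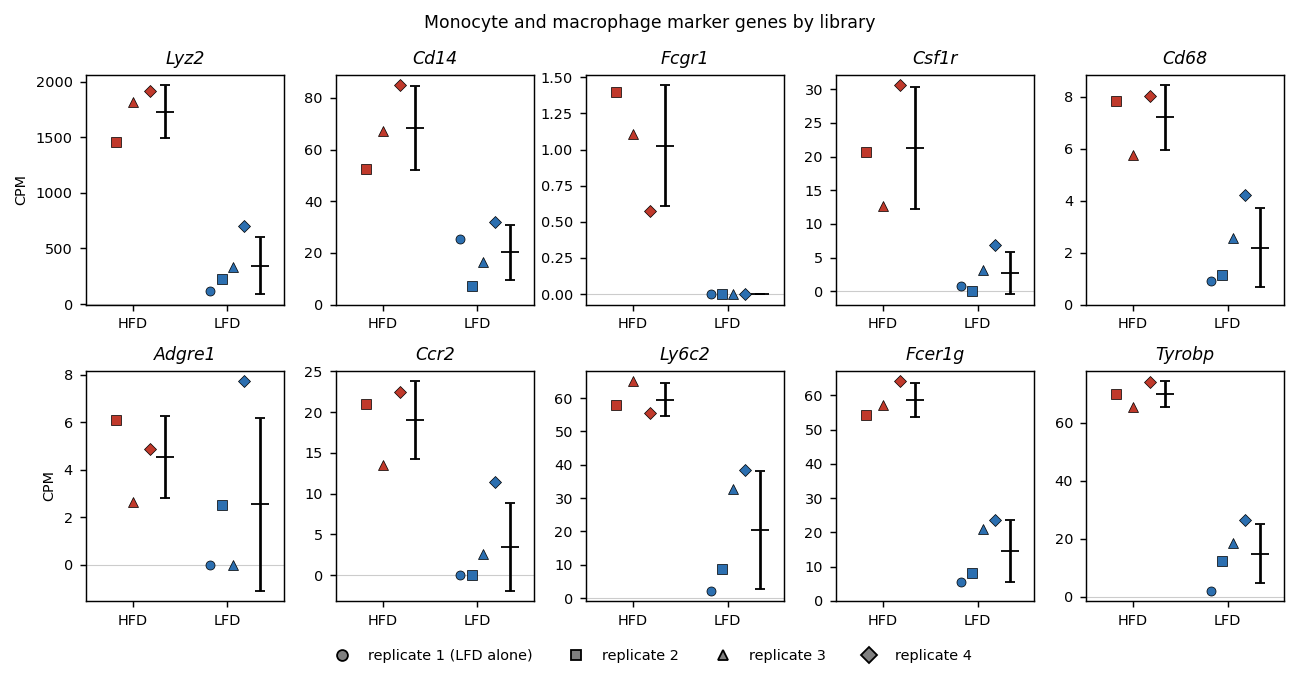
CPM of the 10 markers in each library (symbols mark the replicate number, red HFD and blue LFD), with the mean and SD of each group as a bar. The HFD points lie above all LFD points in each panel except Adgre1, and LFD 4 is the highest LFD library wherever LFD counts are above 0.

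RefSeq promoter windows of 250 bases before to 50 bases after the start (GRCm38.p6) were searched for 6 of 10 members, 7 windows in all. The core of PU.1 sites, GAGGAA on either strand, was present for 3 of the 6 members, and 28.3% of all 32851 windows hold it. A relaxed C/EBP motif, TTNNGNAA on either strand, was present for 4 of the 6 members and in 40.7% of all windows. PU.1, encoded by Spi1, is a transcription factor of myeloid cells, and 1 window with its core is shown for each of the 3 members so that the place of the match can be read, with the matched bases in capitals. The windows of Lyz2, Ccr2 and Fcer1g held no PU.1 core. The 3 windows are given 5′ to 3′ on the strand of the gene, which is the minus strand for all 3. A match describes the letters and not a bound site.
Fcgr1, chr3:96293920-96294219: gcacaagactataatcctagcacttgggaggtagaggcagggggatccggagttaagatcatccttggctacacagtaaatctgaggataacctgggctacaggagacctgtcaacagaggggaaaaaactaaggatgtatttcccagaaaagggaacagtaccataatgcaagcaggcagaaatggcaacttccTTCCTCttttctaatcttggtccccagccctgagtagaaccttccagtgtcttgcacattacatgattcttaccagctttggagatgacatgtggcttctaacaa
Cd68, chr11:69666121-69666420: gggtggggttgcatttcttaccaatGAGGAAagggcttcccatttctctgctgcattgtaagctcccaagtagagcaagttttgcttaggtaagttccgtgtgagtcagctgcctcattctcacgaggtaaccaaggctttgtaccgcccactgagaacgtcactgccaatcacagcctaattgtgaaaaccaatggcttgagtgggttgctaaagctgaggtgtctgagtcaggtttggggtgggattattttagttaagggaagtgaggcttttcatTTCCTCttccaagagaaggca
Ly6c2, chr15:75111888-75112187: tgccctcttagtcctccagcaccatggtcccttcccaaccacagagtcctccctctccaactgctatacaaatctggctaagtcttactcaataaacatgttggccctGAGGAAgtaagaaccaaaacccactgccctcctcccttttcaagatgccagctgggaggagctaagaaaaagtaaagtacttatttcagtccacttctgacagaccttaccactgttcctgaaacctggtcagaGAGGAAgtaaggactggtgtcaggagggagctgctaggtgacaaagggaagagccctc
In Fcgr1 the match begins 55 bases before the start. In Cd68 the matches begin 225 bases before and 29 bases after it, and in the Ly6c2 window shown they begin 142 and 8 bases before it. Ly6c2 has a second RefSeq start, whose overlapping window is not shown, and from that start the same matches begin 108 bases before and 26 bases after. Cd68 also held 3 matches to the C/EBP motif.

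The ITAM adaptors had closely spaced HFD values and wider LFD values. Tyrobp, the adaptor chain DAP12 (ENSMUSG00000030579, chromosome 7, 30413760 to 30417585, mm10), measured 69.9, 65.3 and 74.0 CPM in HFD 2 to 4, against 2.22, 12.3, 18.7 and 26.5 CPM in LFD 1 to 4. The lowest HFD library stood at 2.46 times the highest LFD library. The group means were 69.7 ± 4.40 CPM in HFD (SD, n = 3) and 14.9 ± 10.3 CPM in LFD (SD, n = 4), with a log2 fold change of 2.23 ± 0.65 (SE) and an edgeR adjusted p of 0.405. Fcer1g, the common gamma chain of Fc receptors (ENSMUSG00000058715, chromosome 1, 171229572 to 171234365), had 54.4, 57.3 and 64.2 CPM in HFD 2 to 4, against 5.54, 8.21, 21.0 and 23.6 CPM in LFD 1 to 4. Its HFD values spanned a narrow range and its LFD values fell into a lower pair and a higher pair of libraries. The log2 fold change was 2.01 ± 0.49 (edgeR adjusted p = 0.290, DESeq2 adjusted p = 0.0126).

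Fcgr1, the high-affinity IgG receptor that signals through the gamma chain (ENSMUSG00000015947, chromosome 3, 96282909 to 96293969), was the rarest member, and its window above holds a single PU.1 core. It had 40, 23 and 12 counts in HFD 2 to 4 and 0 counts in each of the 4 LFD libraries. Pooled over the HFD libraries, Fcgr1 stood 27.7-fold above a floor of 3 counts over the LFD group (edgeR adjusted p = 0.290, DESeq2 adjusted p = 0.0194). Its place among the tested genes came through the HFD libraries alone, so neither the fold nor the p-values count as support for a difference. The HFD level itself was low, at 1.03 ± 0.419 CPM (SD, n = 3), and HFD 4, which was highest for most other members, was lowest here.

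Receptors for growth factor, chemokine and bacterial lipid varied more between the HFD libraries than the adaptors did. Csf1r, the receptor for the macrophage growth factor (ENSMUSG00000024621, chromosome 18), measured 20.6, 12.6 and 30.6 CPM in HFD 2 to 4, against 0.702, 0, 3.11 and 6.87 CPM in LFD 1 to 4. The groups did not overlap, yet the log2 fold change of 2.99 carried an SE of 1.18 (edgeR adjusted p = 0.615, DESeq2 adjusted p = 0.218). Hmgxb3, on the opposite strand, overlaps the Csf1r locus, and reads of the overlap cannot be assigned without the strand setting. Ccr2, the receptor for Ccl2 (ENSMUSG00000049103, chromosome 9, 124101950 to 124113557), had 21.0, 13.5 and 22.4 CPM in HFD 2 to 4, against 0, 0, 2.61 and 11.4 CPM in LFD 1 to 4. LFD 4 came close to HFD 3, and the LFD libraries ranged from no counts to 230 counts (log2 fold change 2.44 ± 1.56, edgeR adjusted p = 0.708). Cd14, the co-receptor for lipopolysaccharide (ENSMUSG00000051439, chromosome 18), measured 52.6, 67.3 and 85.2 CPM in HFD 2 to 4, against 25.5, 7.14, 16.6 and 31.8 CPM in LFD 1 to 4. LFD 1, the lowest LFD library for 5 members, was the second highest for Cd14, whose log2 fold change was 1.75 ± 0.46 (edgeR adjusted p = 0.326, DESeq2 adjusted p = 0.0222).

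The ligands of these receptors were also measured. Of 8 ligands and co-receptors, 6 were tested, 5 had higher and 1 lower values in HFD, and edgeR called 0. An unadjusted p under 0.05 was found for 3 (5.18% of all genes tested), and 2 passed in DESeq2 (1.77%). Csf1, a ligand of Csf1r, measured 85.6, 121 and 66.0 CPM in HFD 2 to 4, against 31.4, 33.4, 36.2 and 36.9 CPM in LFD 1 to 4. Il34, the other ligand of that receptor, measured 27.3, 22.1 and 16.6 CPM in HFD 2 to 4, against 6.71, 5.39, 2.37 and 5.83 CPM in LFD 1 to 4 (log2 fold change 2.11 ± 0.41, edgeR adjusted p = 0.230). Neither ligand's groups overlapped, and DESeq2 called both. Ccl2, the ligand of Ccr2, had 9.23, 8.11 and 6.50 CPM in HFD 2 to 4, against 0.390, 3.63, 1.37 and 0.247 CPM in LFD 1 to 4. The partners of Cd14 overlapped between the diets: Tlr4, the signalling receptor, had a log2 fold change of 0.24 ± 0.25, its partner Ly96 one of 1.28 ± 0.76, and the lipopolysaccharide binding protein Lbp one of -0.44 ± 0.51.

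Lyz2, which encodes the lysozyme of myeloid cells (ENSMUSG00000069516, chromosome 10, 117277331 to 117282321), was by far the most abundant member. It measured 1462, 1815 and 1919 CPM in HFD 2 to 4, against 116, 223, 337 and 704 CPM in LFD 1 to 4. The lowest HFD library stood at 2.07 times the highest LFD library, and the LFD libraries differed among themselves 6.06-fold. The log2 fold change was 2.33 ± 0.56 (edgeR adjusted p = 0.288, DESeq2 adjusted p = 0.00243). Lyz2 made up 83.4% to 86.2% of the summed CPM of the 10 genes in HFD libraries and 75.8% to 84.8% in LFD libraries. Its near-identical neighbour Lyz1 had at most 36 counts in HFD libraries and 57 counts in LFD libraries, and reads common to both copies may have been shared or dropped. Cd68, a membrane protein of macrophage lysosomes (ENSMUSG00000018774, chromosome 11, 69664213 to 69666153), had 7.83, 5.75 and 8.03 CPM in HFD 2 to 4, against 0.897, 1.13, 2.55 and 4.20 CPM in LFD 1 to 4. Its log2 fold change was 1.71 ± 0.66 (edgeR adjusted p = 0.611).

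The surface markers Ly6c2 and Adgre1 had the smallest log2 fold changes of the 10 genes. Ly6c2, whose product marks classical monocytes (ENSMUSG00000022584, chromosome 15, 75108158 to 75111970), measured 57.9, 65.0 and 55.7 CPM in HFD 2 to 4, against 2.30, 8.71, 32.7 and 38.4 CPM in LFD 1 to 4. LFD 3 and LFD 4 lay nearer to the lowest HFD library than to LFD 1 (log2 fold change 1.54 ± 0.78, edgeR adjusted p = 0.685). Ly6c1, a near-identical neighbour also found on endothelium, followed another order, with 9.86, 12.5 and 28.1 CPM in HFD 2 to 4 and 30.3, 6.20, 6.60 and 20.1 CPM in LFD 1 to 4, and reads may have been split between the copies. Adgre1, which encodes the macrophage antigen F4/80 (ENSMUSG00000004730, chromosome 17, 57358691 to 57483527), had 6.08, 2.66 and 4.87 CPM in HFD 2 to 4, against 0, 2.51, 0 and 7.71 CPM in LFD 1 to 4. The groups overlapped, since LFD 4 exceeded every HFD library, and the log2 fold change of 0.83 ± 1.70 was smaller than its error (edgeR adjusted p = 0.919).

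**Figure D2:**
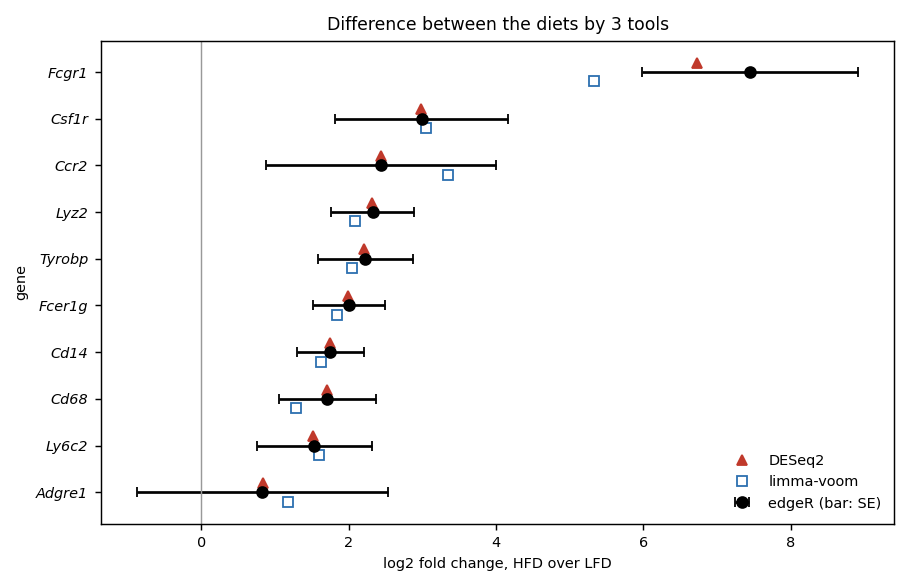
Log2 fold change of HFD over LFD for each marker by edgeR (black, bar for 1 SE), DESeq2 (red) and limma-voom (blue). All estimates lie right of 0, from 0.83 for Adgre1 by edgeR upward, and the estimate for Fcgr1 depends on the prior count because its LFD libraries hold 0 counts.

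Levels were compared between the genes per kilobase of exon, on the group means in HFD. Lyz2 stood at 1316 RPKM, Tyrobp at 105, Fcer1g at 67.1, Cd14 at 39.5 and Ly6c2 at 21.7 RPKM, and the HFD ranges of neighbours in this order did not overlap. Cd68 (5.73 RPKM), Csf1r (3.69) and Ccr2 (2.81) followed, where the range of Csf1r overlapped those of both others, and Adgre1 (1.40) and Fcgr1 (0.397) came last. In LFD the means were 262 RPKM for Lyz2, 22.4 for Tyrobp, 16.7 for Fcer1g, 11.7 for Cd14 and 7.50 for Ly6c2. Csf1r, Ccr2, Adgre1 and Fcgr1 were the 4 lowest members per length in both diets.

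The highest library of each diet was the same for most members. LFD 4 was the highest LFD library for the 9 members that had LFD counts, and HFD 4 was the highest HFD library for 7 of 10. Counts of 0 occurred in LFD libraries for 4 members (Fcgr1, Csf1r, Adgre1 and Ccr2) and in no HFD library. The summed CPM of the 10 genes was 1753, 2105 and 2265 in HFD 2 to 4, against 153, 263, 434 and 855 in LFD 1 to 4. The ratio of group means of this sum was 4.79, and 7.20 without LFD 4, while leaving out any other library gave 3.94 to 5.12. Without LFD 4 the HFD libraries lay above the remaining LFD libraries for 10 of 10 members, and for 11.3% of the 13959 genes tested in that setting. Since LFD 4 was the highest LFD library for 9 members, leaving it out could not lower this count. Fcgr1, which is among the 10, passed the filter through its HFD libraries alone. In the same setting without LFD 4, an unadjusted edgeR p under 0.05 with a higher HFD value was found for 9 members and 5.75% of the 13959 genes. After adjustment edgeR called no member there. With any other library left out, 5 or 6 members had an unadjusted p under 0.05, against 7 with all libraries.

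Receptors that use the ITAM adaptors followed the same direction. Of 12 listed, 8 were tested and all 8 were higher in HFD (median log2 fold change 2.96), against 51.5% of all genes tested. Of the 8, edgeR called 0. An unadjusted edgeR p under 0.05 was found for 7 (5.18% of all genes tested), and 1 passed in DESeq2 (1.77%). Trem1, a receptor of neutrophils and monocytes that pairs with Tyrobp, measured 149, 126 and 77.5 CPM in HFD 2 to 4, against 4.99, 14.8, 0.187 and 16.0 CPM in LFD 1 to 4. Fcgr3, a low-affinity IgG receptor that pairs with the gamma chain, measured 39.5, 28.8 and 37.9 CPM in HFD 2 to 4, against 0.039, 5.89, 1.74 and 11.5 CPM in LFD 1 to 4. Clec5a had a log2 fold change of 3.00 ± 1.12 and Trem3 one of 2.47 ± 0.79. Of 11 kinases and adaptors downstream, 10 were tested and all 10 were higher, with a median of 2.40 and 0 called by edgeR. Against the same shares, 6 were below an unadjusted p of 0.05 and 3 passed in DESeq2. Lcp2, an adaptor that Syk phosphorylates, measured 15.8, 19.9 and 21.7 CPM in HFD 2 to 4, against 1.37, 4.01, 2.93 and 2.72 CPM in LFD 1 to 4. Its edgeR adjusted p was 0.151, and both limma-voom and DESeq2 (DESeq2 adjusted p = 7.6e-08) called it. Of the 3 tools, DESeq2 alone called the Src family kinase Lyn (log2 fold change 2.63 ± 0.48).

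Other monocyte genes also lay higher, and resident macrophage genes did not separate the diets. Of 16 other monocyte genes, 15 were higher and 1 lower in HFD (median 2.08), with 0 called by edgeR. In this list 5 were below an unadjusted p of 0.05 (5.18% of all genes tested) and 2 passed in DESeq2 (1.77%). Groups did not overlap for 11, against 8.4% of all genes tested. Cybb, a subunit of the phagocyte oxidase, measured 155, 207 and 258 CPM in HFD 2 to 4, against 11.8, 20.4, 38.7 and 87.2 CPM in LFD 1 to 4. Itgb2, the beta chain of leukocyte integrins, had a log2 fold change of 2.09 ± 0.53. Lgals3 (0.57 ± 0.36) and F13a1 (0.50 ± 0.24) were the most abundant genes of the list, and their groups overlapped. Lgals3 and F13a1 together made up most of the list's summed CPM in each library. Their share was largest in LFD 1, the lowest LFD library for Ptprc. Of 18 resident macrophage genes, 13 were tested, 10 were higher and 3 lower (median 0.44), and 0 had an unadjusted p under 0.05 or were called by DESeq2. Gpnmb, a glycoprotein of macrophages and osteoclasts with the smallest p of the list (unadjusted p = 0.066, edgeR adjusted p = 0.684), had a log2 fold change of -2.18 ± 1.02. It measured 3.39, 8.40 and 4.35 CPM in HFD 2 to 4 and 37.5, 1.19, 46.9 and 11.6 CPM in LFD 1 to 4, where LFD 2 lay below every HFD library. The complement gene C1qa, with a log2 fold change of 2.11 ± 1.63, measured 3.32, 1.11 and 0.478 CPM in HFD 2 to 4 and 0, 0.814, 0 and 0.692 CPM in LFD 1 to 4. Marco and Timd4, singled out after their values were seen, had 0 counts in all libraries. Vcam1 and Axl, which stromal cells also express, made up much of that list's sum of 530 to 801 CPM in HFD and 541 to 714 CPM in LFD.

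Late neutrophil genes also had higher values in HFD libraries. All 16 of 16 late neutrophil genes, which encode proteins of later granules and of mature cells, were higher in HFD (median log2 fold change 2.34). Their groups did not overlap for 16, against 8.4% of all genes tested with HFD above. Of the 16, edgeR called 0, 14 were below an unadjusted p of 0.05 (5.18% of all genes) and 9 passed in DESeq2 (1.77%). Their summed CPM was 9349 to 17869 in HFD libraries and 1016 to 5550 in LFD libraries, and none of the 16 was at 0 in all libraries. From high to low, that sum ran HFD 4, HFD 3, HFD 2, LFD 4, LFD 3, LFD 2, LFD 1, as did the summed CPM of the 10 markers, most of which is Lyz2, a gene that neutrophils also carry. The 9 markers other than Lyz2 summed to 292, 290 and 346 CPM in HFD 2 to 4, so HFD 2 and HFD 3 changed places and were nearly level. Single genes varied more, since 4 of the 16 late neutrophil genes had the full order of the sum, HFD 4 was the highest HFD library for 10 and HFD 2 for 5. The collagenase gene Mmp8, singled out after its values were seen, measured 291, 220 and 205 CPM in HFD 2 to 4, against 2.61, 6.64, 37.0 and 64.4 CPM in LFD 1 to 4. Per 100 CPM of late neutrophil genes, the 9 markers other than Lyz2 summed to 3.12, 2.13 and 1.93 CPM in HFD 2 to 4, against 3.66, 2.04, 4.06 and 2.71 CPM in LFD 1 to 4. This ratio overlapped between the diets. Early granule genes such as Elane (log2 fold change 1.71 ± 1.65) and Mpo (0.95 ± 1.66) were higher in 5 of 5 cases with overlapping groups, and 0 of 5 had an unadjusted p under 0.05. The part of neutrophils in the values of the markers was not tested.

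**Figure D3:**
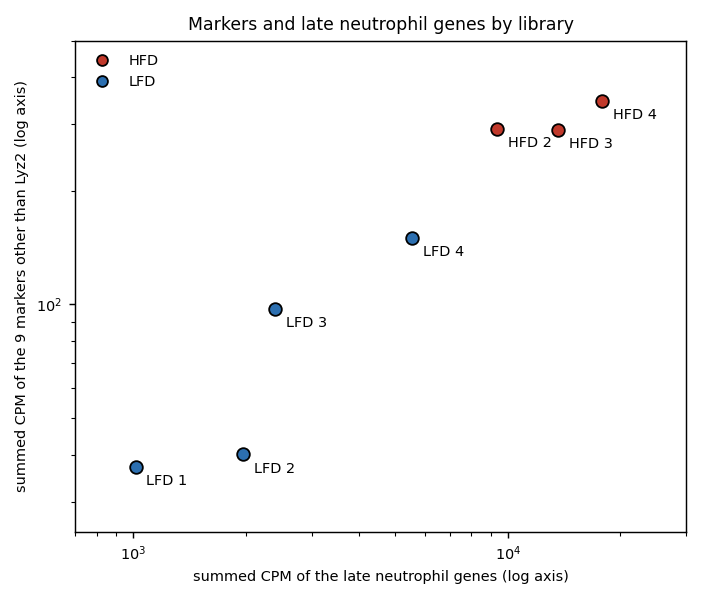
Summed CPM of the 9 markers other than Lyz2 against the summed CPM of 16 late neutrophil genes, 1 point per library on log axes (red HFD, blue LFD). The points run from LFD 1 (37.2 and 1016) to HFD 4 (346 and 17869), with the HFD libraries above all LFD libraries on both axes.

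The ratios between members showed which genes kept step. Fcer1g stood at 0.778 to 0.878 times the CPM of Tyrobp in HFD libraries and at 0.665 to 2.49 times in LFD libraries. Per 100 CPM of Tyrobp, Csf1r stood at 29.5, 19.3 and 41.4 in HFD 2 to 4, against 31.6, 0, 16.7 and 25.9 in LFD 1 to 4. Ccr2 stood at 30.1, 20.7 and 30.3 in HFD 2 to 4, against 0, 0, 14.0 and 42.9 in LFD 1 to 4. Relative to Tyrobp, then, neither receptor separated the diets. LFD 1 held 57 counts of Tyrobp beside 654 counts of Cd14, whereas LFD 4 held 536 beside 643.

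The 8 genes most like the members were chosen by the root mean square difference between their centred log2 CPM and the members' average over the 7 libraries. They were Dok3 and Cybb (0.243 each), Cd52 (0.250), Spi1 (0.308), Trem3 (0.315), S100a9 (0.328), Sla (0.336) and S100a8 (0.341). Of the members, Lyz2 lay nearest to the average (0.306) and Adgre1 farthest (1.84). S100a8 and S100a9, the calprotectin genes of neutrophils and monocytes, measured 1948, 2641 and 3704 CPM and 1728, 2213 and 2862 CPM in HFD 2 to 4, against 192, 314, 509 and 1119 CPM and 142, 300, 445 and 982 CPM in LFD 1 to 4. No gene of these 8 passed edgeR's adjusted threshold (adjusted p from 0.285 to 0.480).

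**Figure D4:**
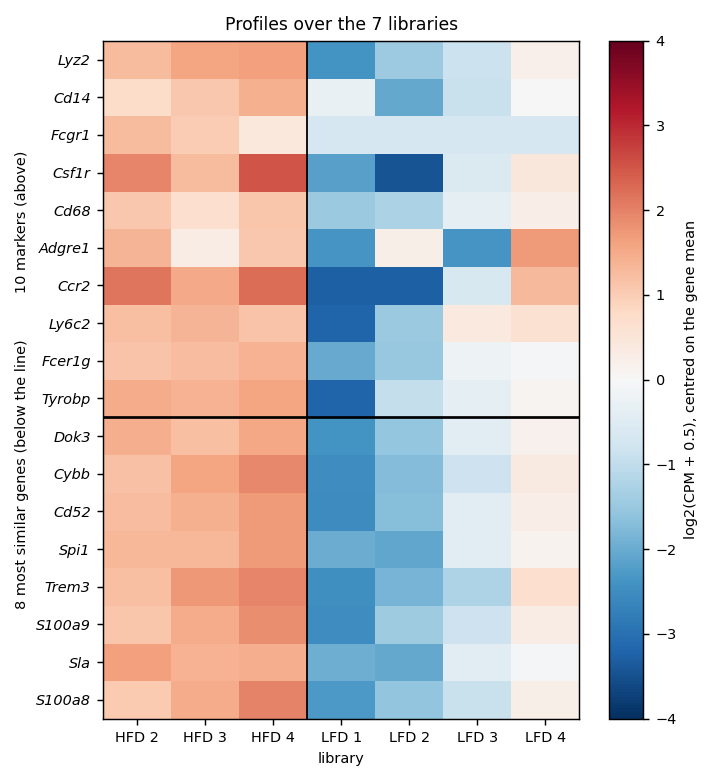
Centred log2(CPM + 0.5) of the 10 markers (above the line) and the 8 most similar genes (below it) in each library, red above and blue below the gene's mean. The 8 similar genes were chosen for likeness to the markers' average, which largely fixed their pattern. These 8 are red in all HFD libraries and deepest blue in LFD 1 or LFD 2, while Adgre1 has its deepest red in LFD 4. LFD 4 is also above the gene's mean for others, among them Lyz2, Csf1r, Ccr2 and S100a8, and slightly below it for Sla.

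Among myeloid transcription factors, Spi1 measured 32.7, 33.3 and 43.1 CPM in HFD 2 to 4, against 2.89, 2.63, 9.28 and 14.3 CPM in LFD 1 to 4 (log2 fold change 2.32 ± 0.60, edgeR adjusted p = 0.319, DESeq2 adjusted p = 0.0147). Of the 11 factors tested, 11 were higher in HFD (median 0.64), against 51.5% of all genes tested, and 0 were called by edgeR. An unadjusted p under 0.05 was found for 3 (5.18% of all genes), and DESeq2 called 1 (1.77%). Cebpb had a log2 fold change of 0.96 ± 0.35, Maf one of 1.70 ± 0.60 and Nr4a1 one of 0.64 ± 0.32.

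**Figure D5:**
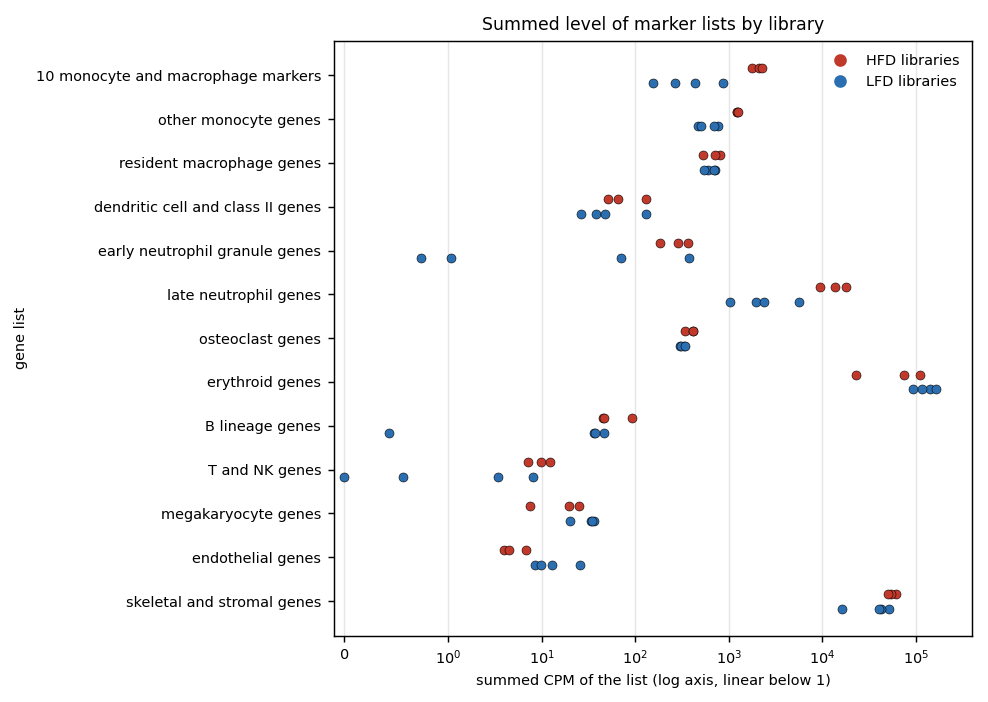
Summed CPM of the 10 markers and of 12 lists of other cell types, 1 point per library (red HFD above blue LFD in each row, log axis that is linear below 1). The sums of the markers, the other monocyte genes and the late neutrophil genes lie higher in all HFD libraries. Lgals3 and F13a1, whose own groups overlapped, make up much of the other monocyte sum. The resident macrophage and class II sums overlap, and the erythroid sums reach 22596 to 109311 CPM in HFD and 93340 to 161389 CPM in LFD.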

How the data were processed

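The deposited values are raw counts per Ensembl gene, 1 column per library, which the authors did not normalize. Per the submitters' processing notes, the tools were STAR 2.5.2b, HTSeq 0.11.2, cutadapt, bcl2fastq 2.20 and DESeq2 1.26.0, with mm10 as the build. Their order, the strand setting and the annotation release are not stated there. Per the labels' protocols, libraries were made with low-input SMART-Seq and Nextera XT kits, which amplify by PCR, so floors cover counting error only. The labels tie no library to an animal, so a p-value here reflects spread among samples that can be technical in part.

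Libraries were grouped by title. HFD was compared with LFD in edgeR 4.0.16 (R 4.3.3) by its quasi-likelihood test (TMM, filterByExpr, robust fit, diet alone, Benjamini-Hochberg over 14304 genes, threshold 0.05). A fold change is HFD over LFD. RPKM divides CPM by the union of exons in GENCODE M21 (GRCm38). On simulated counts for this comparison, changes were planted in 200 genes, with 13581 genes in all. The test recovered 2% of planted changes of log2 1, 64% at log2 2 and 92% at log2 3, with 6 false calls. Changes were planted only in genes with a mean of at least 8 CPM, so recovery at the lower levels of Fcgr1, Adgre1 and Cd68 was not tested. Members, lists and promoter motifs were chosen with earlier results of these data known. Named genes were all members, all tested ligands and co-receptors, and per other list up to 4 with the smallest p and the 2 with the highest CPM, plus the 8 most similar genes with a mean of at least 8 CPM. Further genes were named after their values were seen. A gene that this rule picked is not reported here. Of 196 listed genes, 195 were matched. Alternatives were 2 other normalizations, 2 filters, no robust estimates, DESeq2 1.42.0, limma-voom (limma 3.58.1), an adjusted p of 0.1, each library left out and replicate number as a block.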

Additional observations from a re-analysis of the deposited data

Results flagged for a closer look

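Of 29 sets of 4 LFD values given Dixon's test (the members and the list sums), 1 held a library far from the others, where chance flags about 1 in 20. The summed CPM of the megakaryocyte genes was 20.0 in LFD 1, against 33.6 to 35.8 in LFD 2 to 4, and it was 7.48 to 24.7 in HFD libraries.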

How the results depend on the processing

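The members kept positive fold changes under every alternative run in which they were tested, and no call was lost because none was made. With DESeq2, 5 members were called (Lyz2, Cd14, Fcgr1, Fcer1g and Tyrobp), and no other alternative called any. Across alternatives the log2 fold change ran from 2.04 to 2.94 for Lyz2, from 1.87 to 2.66 for Tyrobp and from 0.43 to 2.46 for Adgre1. The stricter filter removed Fcgr1.

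Over all genes, edgeR called 5, which were 4 sex-linked genes and C5ar1, with 1077 at an unadjusted p under 0.05. The number was 8 with no filter beyond 1 count, 10 at an adjusted p under 0.1, 361 with DESeq2, 28 with limma-voom and from 1 to 6 with 1 library left out. It was 0 with the stricter filter in edgeR (988 at an unadjusted p under 0.05). It was also 0 in edgeR when the sex-linked genes were left out of the adjustment, an alternative chosen after seeing the data (1072 at an unadjusted p under 0.05). In that alternative the p-values were unchanged and the adjustment alone was rerun. The cause of the other shifts was not tested. Same-numbered libraries had correlations of deviations from -0.095 to 0.026, against -0.172 to 0.189 for differently numbered ones. So few pairs cannot decide whether a replicate number marks a shared batch, day or litter. With replicate number as a block, edgeR called 0 genes and 0 members (1335 genes and 5 members at an unadjusted p under 0.05).

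Depth limits Fcgr1 most, with 75 counts over 3 HFD libraries.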

Other observations

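The B lineage, T and NK, megakaryocyte and endothelial lists each summed to less CPM than the 10 markers in every library. B lineage genes summed to 45.5 to 91.7 CPM in HFD libraries and 0.429 to 46.2 CPM in LFD libraries. In LFD 2 their sum of 46.2 CPM exceeded the 40.0 CPM of the 9 markers other than Lyz2. Of the 7 tested, 7 were higher in HFD (median log2 fold change 0.87), and 0 were called by edgeR. Cd22, a receptor of B cells, was the single gene of the list with an unadjusted edgeR p under 0.05 (5.18% of all genes tested). It was also the single one passing in DESeq2 (1.77%). It was detected in each HFD library (0.525, 2.22 and 1.58 CPM in HFD 2 to 4) and had 0 counts in each LFD library, so it passed the filter on low counts through its HFD libraries alone. The genes of T and NK cells summed to 7.20 to 12.2 CPM in HFD and 0 to 8.11 CPM in LFD. LFD 1, the lowest LFD library for the marker sum, was also the lowest for the B lineage and T and NK sums.

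Osteoclasts descend from the same progenitors as monocytes. Of 9 osteoclast genes, 5 were tested, 3 were higher and 2 lower in HFD, and edgeR called 0. An unadjusted edgeR p under 0.05 was found for 1, against 5.18% of all genes tested with HFD higher. DESeq2 called Ctsk, against 1.77% of the genes it tested. Ctsk, the collagen-degrading protease cathepsin K, measured 80.3, 115 and 75.3 CPM in HFD 2 to 4, against 48.7, 29.3, 50.2 and 49.9 CPM in LFD 1 to 4 (log2 fold change 1.02 ± 0.26, edgeR adjusted p = 0.318). Acp5, tartrate-resistant acid phosphatase, measured 41.3, 99.3 and 118 CPM in HFD 2 to 4, against 47.9, 149, 147 and 113 CPM in LFD 1 to 4, with overlapping groups. Tnfrsf11a, which encodes the receptor RANK, singled out after its values were seen, reached at most 0.42 CPM in HFD and 1.38 CPM in LFD.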
